A study of Mus musculus with 81 samples.

Results

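Choline reaches a neuron through membrane transporters and is built into phosphatidylcholine by a short chain of enzymes. The 10 mouse genes described here encode such transporters (Slc44a1, Slc44a2), enzymes of that chain (Chka, Chkb, Pcyt1a, Pcyt1b, Chpt1, Cept1) and enzymes beside it (Pemt, Chdh). They were listed by name as members of the pathway, and each symbol was matched to its gene identifier through the GENCODE M39 annotation. All 10 were found among the 57010 gene identifiers of the deposited tables, of which 56310 had a symbol.

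RNA was sequenced from CA1 pyramidal neurons (CA1 PNs), CA3 pyramidal neurons (CA3 PNs) and dentate gyrus granule cells (DGCs) that were cut out of Nissl-stained sections of rostral hippocampus by laser capture microdissection (LCM). The mice were Ts65Dn (Ts), a Down syndrome model that carries an extra segment homologous to human chromosome 21 on a separate small chromosome, and disomic (2N) mice of the same crosses (Ts65Dn females with males of a C57Bl/6J Eicher by C3H/HeSnJ background), all at 6 months of age. Their dams received a diet with 1.1 g/kg choline chloride (ChN) or 5.0 g/kg (ChP), the pups stayed on the dam's diet until weaning, and all offspring then ate the control diet. The comparisons ask whether genotype, early choline supply or neuronal population went with the RNA of these genes. CA1 PN libraries numbered 6 of 2N ChN, 7 of 2N ChP, 5 of Ts ChN and 9 of Ts ChP mice. CA3 PN libraries numbered 6, 7, 6 and 7 in the same order, and DGC libraries 6, 7, 6 and 9, giving 81 libraries from 28 mice. The ChN mice were male according to the study's methods, and the labels give no sex for the ChP mice. Each library holds a group of captured cells, so fewer cells of a type and less RNA per cell cannot be told apart. Because the ChP mice had their supplement only before weaning, their samples at 6 months measure a past exposure.

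Neurons take up choline mainly through choline transporter-like proteins such as SLC44A1 and SLC44A2. Choline kinases (Chka, Chkb) phosphorylate it, CTP:phosphocholine cytidylyl transferases (CCTs, from Pcyt1a and Pcyt1b) activate phosphocholine to CDP-choline in the rate-limiting step, and the phosphotransferases CHPT1 and CEPT1 join it to diacylglycerol. Apart from this Kennedy pathway, PEMT makes phosphatidylcholine by methylating phosphatidylethanolamine, chiefly in liver, and CHDH oxidizes choline to betaine, a methyl donor used mostly in liver and kidney.

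Total expected counts ran from 358355 to 4744036 per library, with a median of 1195085 in ChN and 1050476 in ChP libraries, so that 1 CPM, the normalized unit of level used below, was close to 1 count in a median library. Summed dentate markers separated the DGC libraries (1756 to 2255 CPM) from CA1 PNs (at most 21.6) and CA3 PNs (at most 137.3). In 10 of the 27 CA1 PN libraries the summed markers of CA2 neurons came to 383.2 to 1596 CPM, against 70.9 to 133.6 in the other 17. The same 10 held 138.7 to 631.5 CPM of CA3 markers, against 1.5 to 27.5 in the 17 and a median of 635.5 in CA3 PNs. Of those 10, 3 held few CA1 markers (79.0 CPM in the library of 2N mouse 17-21, 181.4 in that of 2N mouse 15-336 and 50.7 in that of Ts mouse 16-272, against a median of 1514). The library labelled 2N from the CA1 PNs of mouse 17-154 had a mean of 6.57 on the log2 CPM scale over 22 triplicated genes, within the Ts range (6.46 to 6.70 in ChN libraries). For the same mouse, CA3 PNs had 6.05 and DGCs 5.90. Mouse 15-145 is labelled 2N, but the title of its CA3 PN library says Ts. Its value was 6.19 against 6.51 to 6.68 in the Ts CA3 PN libraries, and it was counted as 2N. Calls that changed without these libraries are given with and without them.

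Levels can be compared between genes only per transcript length, for which the authors' TPM (the length-scaled level given by RSEM) were used. Over the 81 libraries, which pool the populations, Chka, the main choline kinase, was the most abundant of the 10, with a median of 40.5 TPM (7.15 to 76.6). Slc44a1, the general choline transporter, followed at 18.2 TPM (5.58 to 32.0). Cept1 stood at 13.8 TPM, Pcyt1b at 12.7, Chkb at 10.9, Slc44a2 at 10.2 and Chpt1 at 8.55. The ranges of these 5 genes over libraries overlapped almost entirely. Genes were not compared within libraries, so whether neighbours in that order differ was not tested. Pcyt1a, the widely expressed CCT gene, had 5.70 TPM (1.57 to 13.9). The order differed between populations. In CA3 PNs the medians of Pcyt1b (17.5 TPM) and Cept1 (16.4) were level with that of Slc44a1 (16.3), and in DGCs Pcyt1a (8.38) had a higher median than Chpt1 (5.24). The genes outside the Kennedy pathway were close to the limit of detection. Chdh had a median of 0.290 TPM and 2 counts per library, with no count in 12 of 81 libraries. Pemt had a median of 0 TPM, with no count in 43 of 81 libraries and at most 11.7 TPM.

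**Figure D1:**
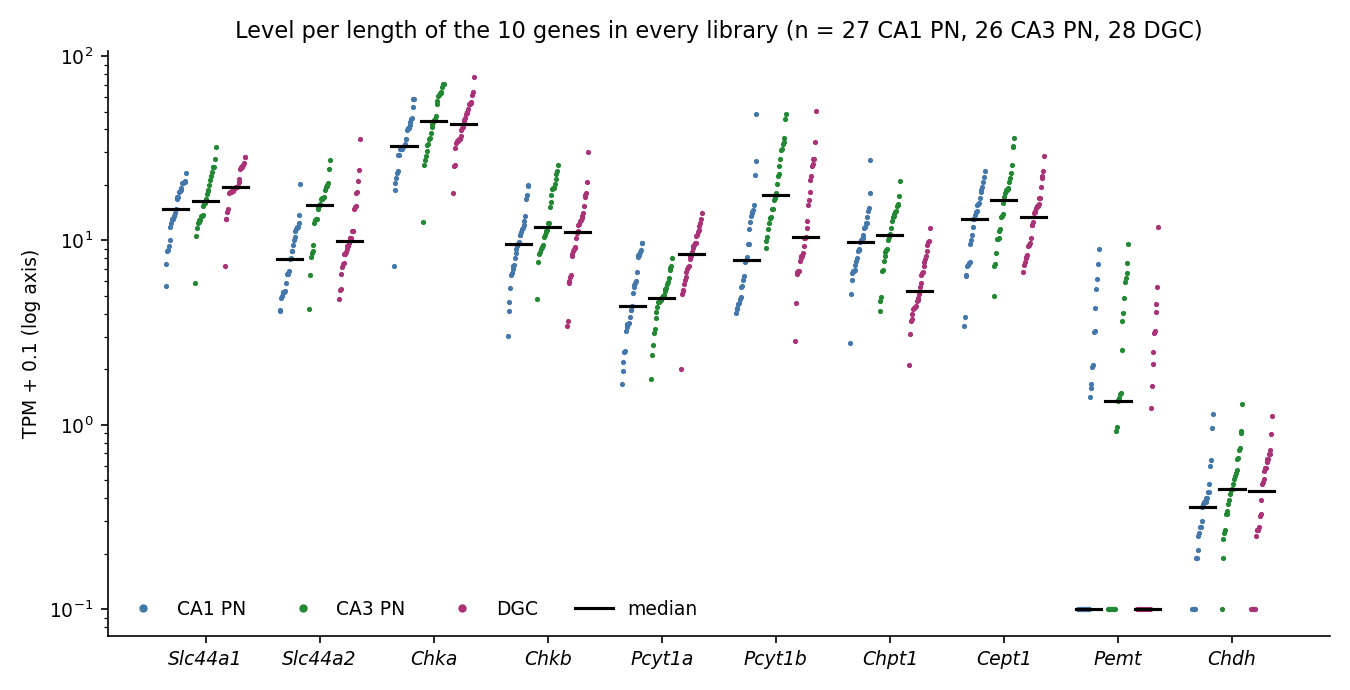
Authors' TPM plus 0.1 on a log axis for the 10 genes in every library of CA1 PNs (27), CA3 PNs (26) and DGCs (28), with short lines at the medians. Chka lies highest, Pemt has medians at 0 TPM in CA1 PNs and DGCs and 1.25 in CA3 PNs, Chdh has medians of 0.26 to 0.350, and Pcyt1b stands higher in CA3 PNs (median 17.5 TPM) than in CA1 PNs (7.73) and DGCs (10.3).

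The neuronal populations differed in 3 of the genes in every group of mice. Pcyt1b was highest in CA3 PNs, Pcyt1a was higher in DGCs than in CA3 PNs, and Chpt1 was lower in DGCs than in either kind of pyramidal neuron. These differences were tested in the libraries of each genotype and diet with edgeR's quasi-likelihood test, with p adjusted by Benjamini-Hochberg over every gene of a comparison. Of 111 tests of a member between 2 populations, 25 passed at an adjusted and 32 at an unadjusted p of 0.05. For CA1 PNs against CA3 PNs, 1 of 9 members tested (of 10 in Ts ChP mice) passed the adjusted threshold in each group, against 23.3, 22.9, 25.3 and 24.5% of all genes tested in 2N ChN, 2N ChP, Ts ChN and Ts ChP mice. Between CA1 PNs and DGCs, 2, 1, 2 and 1 members passed, against 34.3, 31.8, 33.7 and 39.3% of all genes. Between CA3 PNs and DGCs, 3, 4, 4 and 4 passed, against 43.7, 40.4, 44.5 and 44.2%. Without adjustment, the shares of all genes were 32.7, 32.7, 34.9 and 33.8% (CA1 PNs and CA3 PNs), 42.8, 40.1, 41.8 and 46.3% (CA1 PNs and DGCs) and 50.6, 47.5, 50.7 and 50.2% (CA3 PNs and DGCs). The adjusted share of members called was thus at or below the share of all genes in every comparison but 2N ChP CA3 PNs against DGCs, where 4 of 9 lay near its background. What set the members apart from each other was which of them moved, described next by role.

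**Figure D2:**
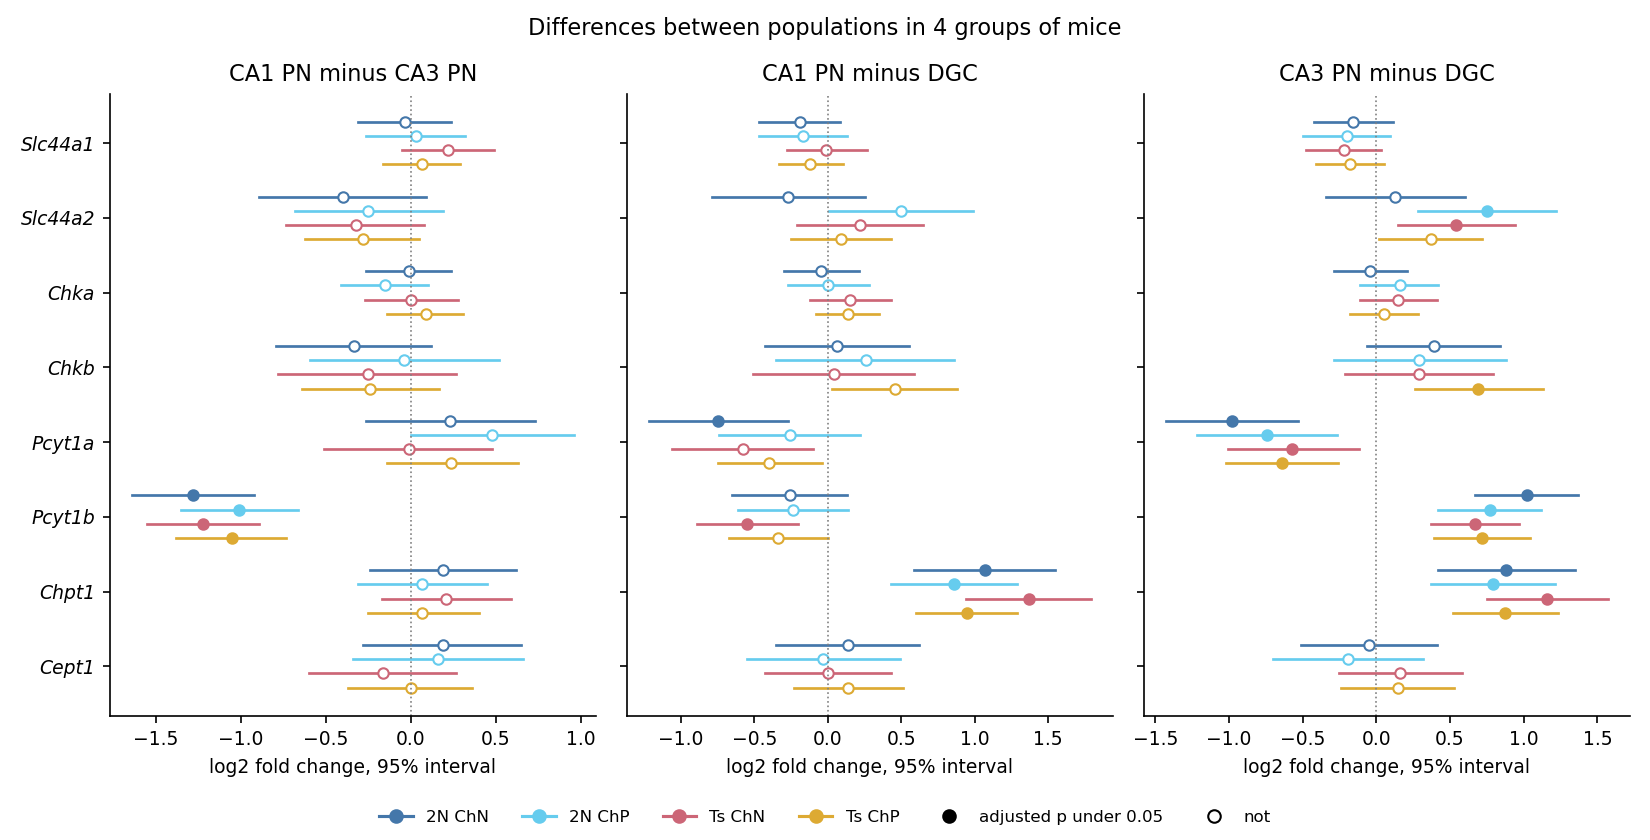
Log2 fold change (LFC) with 95% interval for the 8 genes above the detection limit, in panels for CA1 PNs minus CA3 PNs, CA1 PNs minus DGCs and CA3 PNs minus DGCs, with 1 marker per group of mice and filled markers for an adjusted p under 0.05. Pcyt1b lies left of 0 in the first panel and right of 0 in the last in all 4 groups, and Chpt1 lies right of 0 in both panels that involve DGCs.

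Of the transporters, Slc44a1 (chromosome 4, 53440223 to 53622479, plus strand, GRCm39) was even across the populations. Its normalized CPM ran from 38.4 to 71.6 in CA1 PNs (median 53.0), from 35.5 to 63.0 in CA3 PNs (49.6) and from 41.6 to 71.2 in DGCs (57.4), and the ranges overlapped throughout. None of its 12 tests between populations passed either threshold, with LFC from -0.22 to 0.22 and intervals reaching from -0.50 to 0.49, so LFC of the size that Pcyt1b had between CA3 PNs and the other populations (0.67 or more) lie outside them, while its smaller LFC of CA1 PNs against DGCs in 2N ChN (-0.26) and 2N ChP mice (-0.24) lie inside the Slc44a1 intervals of the same comparisons. In 20 of 26 mice the DGC library was nevertheless the higher of the DGC and CA3 PN pair.

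Slc44a2 (chromosome 9, 21231994 to 21268574, plus strand), a transporter of choline that is also found on mitochondria, was higher in CA3 PNs than in DGCs of 2N ChP and Ts ChN mice. In CA3 PNs the lowest, median and highest libraries were at 17.4, 21.0 and 36.5 CPM in 2N ChN mice, 20.6, 26.3 and 30.1 in 2N ChP, 20.9, 23.7 and 33.9 in Ts ChN and 18.1, 24.5 and 28.4 in Ts ChP mice. In DGCs they were at 12.3, 19.4 and 31.6 CPM, 7.35, 12.8 and 21.5, 13, 17.4 and 21.0, and 14.6, 15.5 and 25.7 in the same order. In CA1 PNs they were at 7.27, 18.7 and 26.3 CPM in 2N ChN, 10.6, 18.2 and 34.3 in 2N ChP and 13.2, 18.4 and 25.9 in Ts ChP mice, with 18.1, 25.2, 14.9, 15.6 and 25.5 in the 5 Ts ChN libraries. The ranges of CA3 PNs and DGCs overlapped in each group, although the CA3 PN library was the higher in 22 of 26 mice. The LFC of CA3 PNs over DGCs was 0.75 (SE 0.23, adjusted p = 0.00833) in 2N ChP and 0.54 (SE 0.20, adjusted p = 0.0225) in Ts ChN mice. It was 0.37 in Ts ChP mice, past the unadjusted threshold alone (adjusted p = 0.0773), and 0.13 (95% interval -0.34 to 0.60) in 2N ChN mice. Scaling by library totals in place of TMM took the median LFC of all genes between CA3 PNs and DGCs from between -0.06 and -0.02 to between -0.26 and -0.23, and neither call on Slc44a2 passed the adjusted threshold under that scaling. The call in Ts ChN mice was also lost without mouse 16-357 or mouse 16-490 (adjusted p of at most 0.13 over all alternatives). Between CA1 PNs and DGCs of 2N ChP mice the LFC was 0.50 (adjusted p = 0.117, past the unadjusted threshold), and it was 0.18, past neither, without the CA1 PN libraries rich in CA2 markers.

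The choline kinases catalyse the step that traps choline in the cell. Chka (chromosome 19, 3901743 to 3944381, plus strand) was level in the 3 populations, with medians of 84.1 CPM in CA1 PNs (58.9 to 107.5), 81.3 in CA3 PNs (62.6 to 115.4) and 77.6 in DGCs (52.6 to 97.2). Its 12 LFC between populations lay between -0.15 and 0.16, none passed a threshold, and the widest limits of their intervals were -0.41 and 0.43. Chkb (chromosome 15, 89310563 to 89314139, minus strand), the second kinase, had medians of 13.5, 15.2 and 10.6 CPM for CA1 PNs, CA3 PNs and DGCs.

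Chkb was higher in CA3 PNs than in DGCs of Ts ChP mice. Its CA3 PN libraries there ran from 12.2 to 21.7 CPM with a median of 13.4, and its DGC libraries from 4.74 to 11.9 with a median of 9.11, without overlap, as was found for 19.3% of all genes tested in that comparison. The LFC was 0.69 (SE 0.22, adjusted p = 0.00739), and the CA3 PN library was the higher in 7 of 7 mice. The values in 2N ChN, 2N ChP and Ts ChN mice were 0.39, 0.29 and 0.29, none past a threshold. In the model of all libraries, the LFC in Ts ChP mice differed from that in 2N ChP mice by 0.38 (interval -0.29 to 1.04, adjusted p = 0.980) and from that in Ts ChN mice by 0.39 (interval -0.26 to 1.04, adjusted p = 1.0), so the groups were not shown to differ. The adjusted call was lost when libraries were scaled by their totals and when mouse 16-206 was left out. Against CA1 PNs of Ts ChP mice the LFC over DGCs was 0.46 past the unadjusted threshold alone (adjusted p = 0.0823), and 0.32, past neither, without the libraries rich in CA2 markers.

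The start regions of the CCT genes are printed here because the paralogs, which catalyse the same step, differed in opposite directions between CA3 PNs and DGCs. The sequences are the 250 bases before a transcription start in RefSeq on GRCm38.p6, an earlier build than the GRCm39 gene positions given elsewhere, written 5′ to 3′ on the gene's strand with every CG dinucleotide in capitals. Pcyt1a is shown at the first of its 3 listed starts, chr16:32430671-32430920 (plus strand), and Pcyt1b at its 2 listed starts, chrX:93654613-93654862 and chrX:93674862-93675111 (plus strand).
Pcyt1a: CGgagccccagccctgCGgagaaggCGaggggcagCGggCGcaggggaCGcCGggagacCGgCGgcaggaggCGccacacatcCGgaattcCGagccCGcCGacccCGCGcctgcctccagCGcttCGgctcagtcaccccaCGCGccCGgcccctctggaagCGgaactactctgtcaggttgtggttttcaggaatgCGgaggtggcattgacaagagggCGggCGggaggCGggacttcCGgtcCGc
Pcyt1b, start 1: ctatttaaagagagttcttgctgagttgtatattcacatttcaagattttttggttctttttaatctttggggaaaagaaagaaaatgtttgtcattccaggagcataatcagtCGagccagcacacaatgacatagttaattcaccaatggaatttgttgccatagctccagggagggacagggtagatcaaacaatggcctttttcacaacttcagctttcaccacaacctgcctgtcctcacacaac
Pcyt1b, start 2: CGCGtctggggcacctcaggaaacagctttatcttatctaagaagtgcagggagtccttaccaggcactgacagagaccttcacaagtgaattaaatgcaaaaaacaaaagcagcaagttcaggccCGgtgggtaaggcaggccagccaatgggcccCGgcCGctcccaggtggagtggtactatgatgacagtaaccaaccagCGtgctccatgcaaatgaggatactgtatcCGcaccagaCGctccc
The Pcyt1a window held 28 CG dinucleotides and 71.6% G or C, and 7.6% of the 32851 promoters of the table held as many CG or more. The windows of its other starts held 27 CG with GGGCGG in 2 places (start 2) and 14 CG, 64.0% G or C and no GGGCGG (start 3, as many CG or more in 29.4%). Pcyt1b start 1 held 1 CG and 39.6% G or C, and 18.8% of promoters held as few. Pcyt1b start 2 held 8 CG and 53.6% G or C, near the medians of all promoters (6 CG and 52.4%). The letters GGGCGG, searched on both strands, occurred 2 times in the printed Pcyt1a window and in neither Pcyt1b window, and are present in 32.7% of all promoters. CCAAT occurred once in each Pcyt1b window and not in that of Pcyt1a (33.8% of all promoters), and TATAAA was in none of the 3 (12.4%). The counts are per gene and do not say which start was used in these neurons.

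Pcyt1b (chromosome X, 92698469 to 92793557, plus strand, GRCm39), the isoform gene known for its expression in brain, had its highest libraries in CA3 PNs. There the lowest, median and highest were at 53.9, 64.8 and 75.4 CPM in 2N ChN mice, 50.6, 63.4 and 74.0 in 2N ChP, 47.3, 61.7 and 67.1 in Ts ChN and 48.8, 59.2 and 76.4 in Ts ChP mice. In DGCs they were at 21.8, 34.1 and 39.2 CPM, 19.7, 42.1 and 49.5, 33.5, 34.8 and 46.3, and 26.2, 36.2 and 47.7 in the same order. In CA1 PNs they were at 16.6, 25.4 and 43.5 CPM in 2N ChN, 19.5, 30.6 and 49.0 in 2N ChP and 20.6, 24.9 and 57.1 in Ts ChP mice, and the 5 Ts ChN libraries were at 34.6, 28.3, 27.2, 14.5 and 21.1. CA3 PNs and DGCs did not overlap in any of the 4 groups, and CA3 PNs and CA1 PNs did not overlap in any but Ts ChP, where the CA1 PN library of mouse 16-272, with few CA1 markers and many of CA2 and CA3, stood at 57.1 CPM. Between CA1 PNs and CA3 PNs, ranges without overlap were found for 10.4, 7.39, 14.5 and 6.09% of all genes in the 4 groups, and between CA3 PNs and DGCs for 26.9, 19.4, 26.7 and 19.3%. In TPM, the ranges of Pcyt1b in CA3 PNs overlapped with those of both other populations in every group. In 2N ChN mice they were 9.05 to 33.3 TPM for CA3 PNs (mean 22.4), 7.94 to 34.0 for DGCs (17.8) and 4.20 to 26.8 for CA1 PNs (11.8).

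Mean Pcyt1b in 2N ChN mice was 65.5 ± 7.95 CPM for CA3 PNs, 32.1 ± 6.15 for DGCs and 27.6 ± 9.98 for CA1 PNs (SD, n = 6 each). The LFC of CA1 PNs against CA3 PNs was -1.28 (SE 0.18, adjusted p = 5.04e-07) in 2N ChN, -1.01 (0.17, 9.74e-06) in 2N ChP, -1.22 (0.16, 1.22e-07) in Ts ChN and -1.05 (0.16, 1.84e-06) in Ts ChP mice. CA3 PNs exceeded DGCs 2.03-fold, 1.71-fold, 1.59-fold and 1.64-fold in the same order, with adjusted p of 5.92e-06, 0.000288, 0.000225 and 0.000328. Within mice the CA3 PN library was the higher in 25 of 25 pairs with CA1 PNs and in 26 of 26 pairs with DGCs. All 8 of these calls held under each alternative setting and without each mouse. Between CA1 PNs and DGCs Pcyt1b was lower in CA1 PNs of Ts ChN mice (LFC -0.55, SE 0.17, adjusted p = 0.0115), a call lost without mouse 17-157. The LFC was -0.34 in Ts ChP mice, past the unadjusted threshold alone (adjusted p = 0.104), -0.26 in 2N ChN and -0.24 in 2N ChP mice.

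Within CA1 PNs, Pcyt1b moved with the CA2 and CA3 markers, and their part in its level there was not tested. In the 10 libraries rich in both it ran from 23.2 to 57.1 CPM (median 37.7), against 14.5 to 34.5 (median 23.4) in the other 17. Without those 10 libraries the LFC of CA1 PNs against CA3 PNs was -1.45, -1.35, -1.35 and -1.43 in the 4 groups, larger in size than with them, and in Ts ChP mice the LFC against DGCs went from -0.34 to -0.72. This threshold of 200 CPM was chosen after the data were seen. Summed markers of oligodendrocytes, vascular cells and astrocytes were also highest in CA3 PNs by their medians. Among the single markers, astrocyte Slc1a3 was highest in DGCs (106.8 CPM, 99.2 in CA3 PNs) and vascular Pecam1 in CA1 PNs (2.23 CPM, 1.81 in CA3 PNs). The 6 oligodendrocyte markers summed to 145.3 to 343.2 CPM for CA3 PNs, 52.4 to 206.1 for CA1 PNs and 29.5 to 86.3 for DGCs, and Mog, which is specific to those cells, was at 0 in 2 of 26, 8 of 27 and 18 of 28 libraries. The median sums of vascular markers were 32.7 CPM for CA3 PNs, 22.8 for CA1 PNs and 12.8 for DGCs, and those of astrocyte markers 185.0, 143.4 and 160.9. Oligodendrocyte and vascular markers were thus lowest in DGCs, as Chpt1 was. The median oligodendrocyte sum was 57.7 CPM in DGCs and 210.6 in CA3 PNs, with CA1 PNs between them. Their part in the Pcyt1b, Slc44a2, Chkb and Chpt1 differences was not tested.

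**Figure D3:**
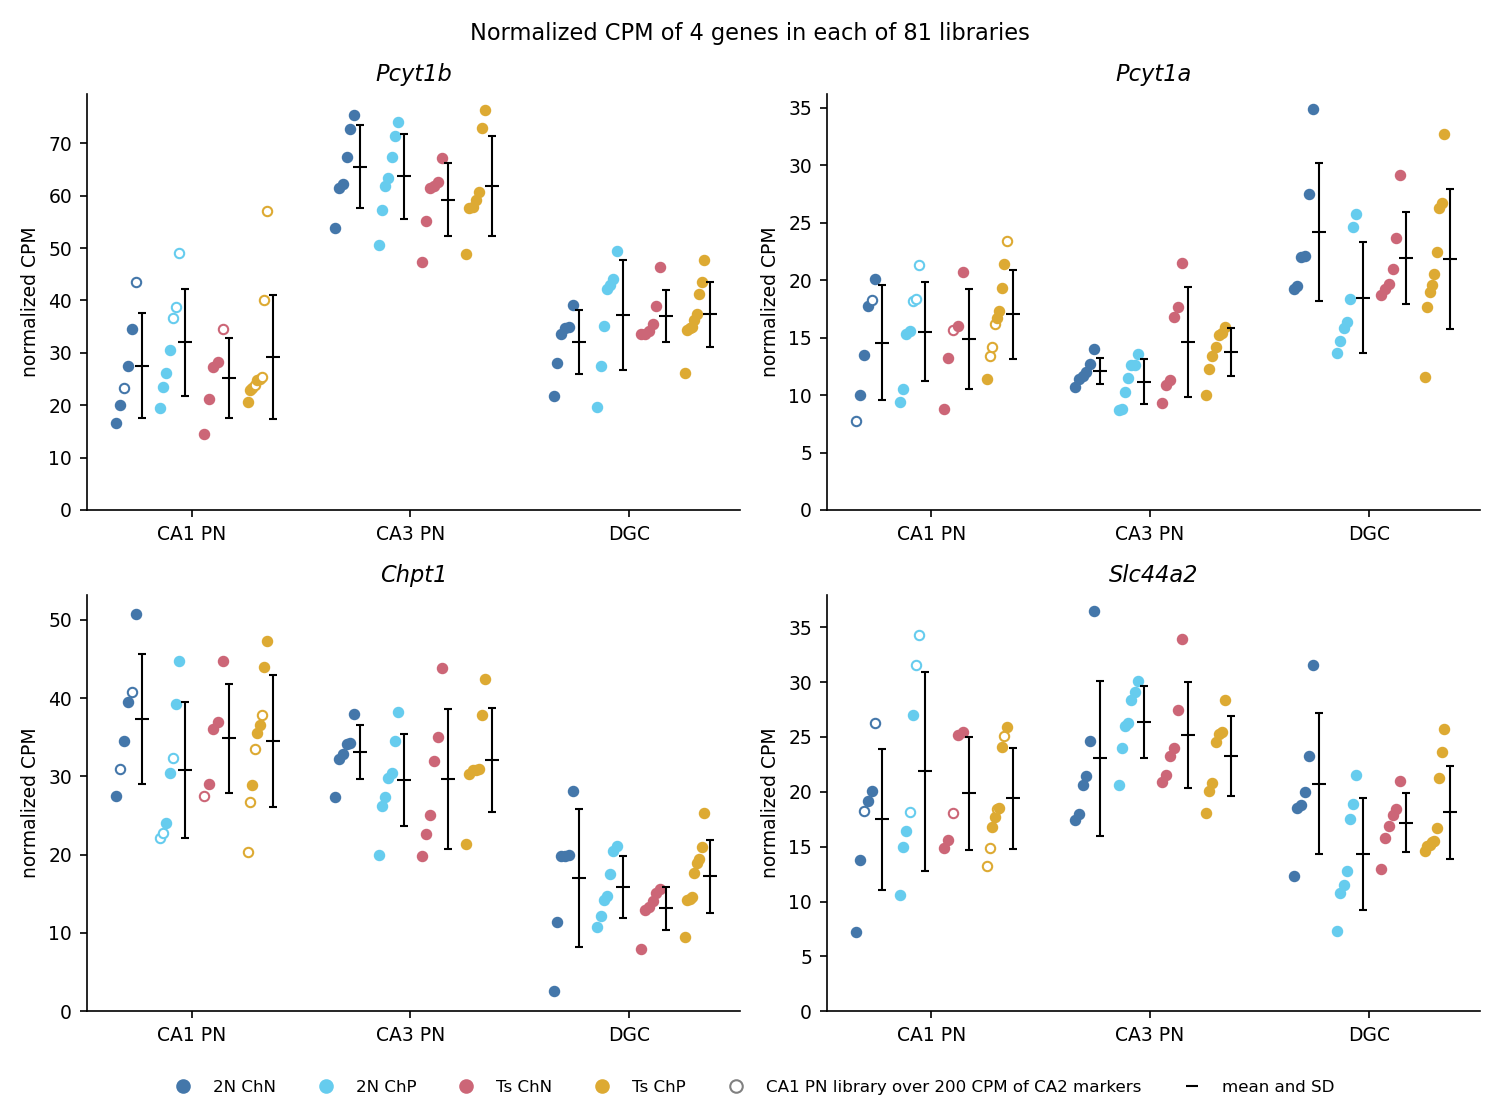
Normalized CPM of Pcyt1b, Pcyt1a, Chpt1 and Slc44a2 in each of the 81 libraries by population and group of mice, with means and SD as bars and open circles for the CA1 PN libraries over 200 CPM of CA2 markers. The CA3 PN libraries of Pcyt1b (47.3 to 76.4 CPM) stand above all DGC libraries of the same group, and the DGC libraries of Chpt1 reach down to 2.59 CPM.

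Pcyt1a (chromosome 16, 32249426 to 32294242, plus strand), the CCT gene of most tissues, was ordered the other way, with its highest group medians in DGCs. Its DGC libraries had a lowest, median and highest value of 19.2, 22 and 34.9 CPM in 2N ChN, 13.7, 16.4 and 25.8 in 2N ChP, 18.7, 20.4 and 29.2 in Ts ChN and 11.6, 20.5 and 32.7 in Ts ChP mice. Its CA3 PN libraries were at 10.7, 11.9 and 14.0 CPM, 8.67, 11.5 and 13.6, 9.31, 14.1 and 21.5, and 9.97, 14.2 and 15.9 in the same order. In CA1 PNs the values were 7.74, 15.7 and 20.1 CPM in 2N ChN, 9.36, 15.6 and 21.3 in 2N ChP and 11.4, 16.7 and 23.4 in Ts ChP mice, with 15.7, 16.0, 8.79, 20.7 and 13.2 in the 5 Ts ChN libraries. CA3 PNs and DGCs did not overlap in the 2N groups, as was found for 26.9% (2N ChN) and 19.4% (2N ChP) of all genes. They overlapped in the Ts groups, and CA1 PNs overlapped with both.

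The LFC of Pcyt1a in CA3 PNs against DGCs was -0.98 (SE 0.22, adjusted p = 0.000460) in 2N ChN, -0.74 (0.24, 0.0101) in 2N ChP, -0.57 (0.22, 0.0352) in Ts ChN and -0.64 (0.19, 0.00468) in Ts ChP mice. The DGC library was the higher in 24 of 26 mice. The call in Ts ChN mice was lost without any 1 of mice 16-357, 16-490, 17-153, 17-173 and 17-192 (adjusted p of at most 0.0958), and that in 2N ChP mice was lost without mouse 15-334 (adjusted p = 0.0604). CA1 PNs were lower than DGCs in 2N ChN mice (LFC -0.75, SE 0.24, adjusted p = 0.0122). That call was lost without the CA1 PN libraries of mice 17-21 and 17-154, without the libraries rich in CA2 markers, and without mouse 15-145 or 17-154 (adjusted p of at most 0.0874). In Ts ChN and Ts ChP mice the LFC of CA1 PNs against DGCs was -0.58 and -0.40, past the unadjusted threshold alone (adjusted p of 0.0573 and 0.0697), and in 2N ChP mice -0.26 (adjusted p = 0.442). Against CA3 PNs, CA1 PNs had an LFC of 0.48 in 2N ChP mice past the unadjusted threshold alone (adjusted p = 0.150), which was 0.20, past neither, without the libraries rich in CA2 markers. The 5 microglia markers had the same order as Pcyt1a by their median sums, 24.8 CPM in DGCs (11.6 to 43.1), 19.3 in CA1 PNs (5.57 to 30.6) and 18.8 in CA3 PNs (8.87 to 34.9). So did the 5 interneuron markers, at 225.9 CPM (164.9 to 318.8), 208.5 (132.8 to 435.7) and 177.1 (121.9 to 354.4). Of these, Gad1 alone had its highest median in DGCs, where Sst was at 0 in 19 of 28 libraries and Pvalb in 5. Of the microglia markers, P2ry12 alone had the order of Pcyt1a by its medians (3.09 CPM in DGCs, 2.28 in CA1 PNs and 2.01 in CA3 PNs). C1qb was highest in CA1 PNs (2.64 CPM), and Csf1r, C1qa and Cx3cr1 were higher in CA3 PNs than in CA1 PNs. The part of either set in the Pcyt1a differences was not tested.

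Both genes can be read as a share of their summed counts, which is independent of library scaling. Pcyt1b made up a median of 83.9% of the counts of both CCT genes in CA3 PNs (74.1 to 87.8%), 64.2% in CA1 PNs (41.2 to 81%) and 62.9% in DGCs (44.2 to 76.3%). The share was higher in CA3 PNs than in CA1 PNs in 25 of 25 mice and than in DGCs in 26 of 26, whereas CA1 PNs exceeded DGCs in 15 of 27. The counts behind a share were at least 20 for CA1 PNs, 40 for CA3 PNs and 22 for DGCs. Its group medians within CA3 PNs were 83.9% in 2N ChN, 85.0% in 2N ChP, 79.7% in Ts ChN and 80.6% in Ts ChP mice, with overlapping ranges. The coding regions of the paralogs are alike, and RSEM divides reads that match both, so the split between them is less certain than their sum.

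**Figure D4:**
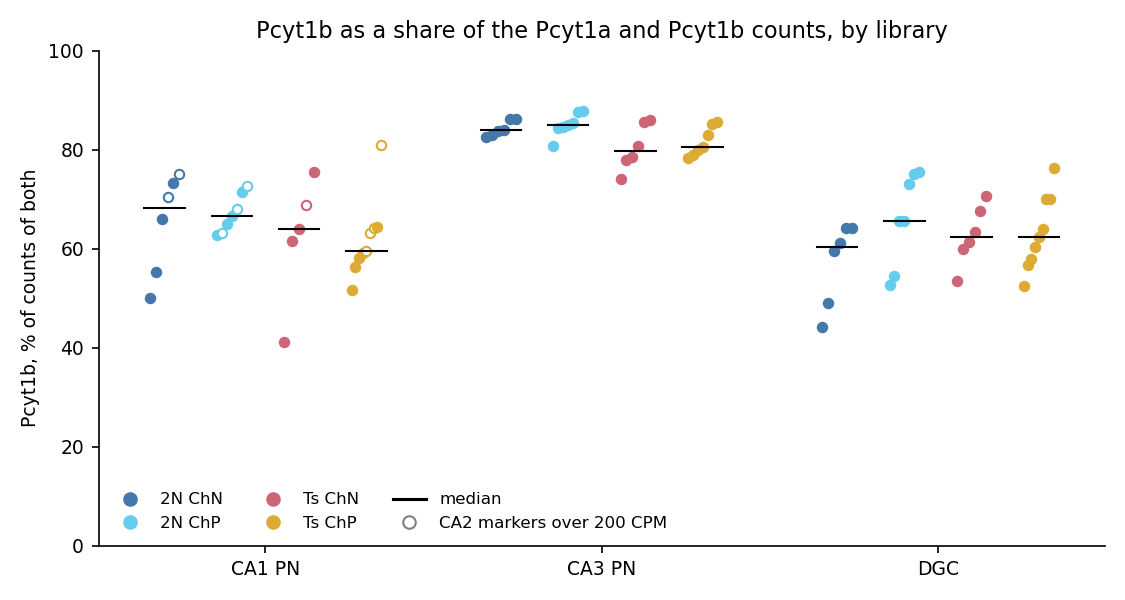
Pcyt1b as a percentage of the summed expected counts of Pcyt1a and Pcyt1b in each library, by population and group of mice, with lines at the group medians. CA3 PN libraries lie between 74.1 and 87.8%, and CA1 PN and DGC libraries spread from 41.2 to 81%.

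Of the phosphotransferases, which make phosphatidylcholine itself, Chpt1 was lower in DGCs. Its start region in RefSeq on GRCm38.p6 is shown for comparison with those of the CCT genes, as the 250 bases at chr10:88503971-88504220 on the minus strand, read 5′ to 3′ with CG in capitals.
Chpt1: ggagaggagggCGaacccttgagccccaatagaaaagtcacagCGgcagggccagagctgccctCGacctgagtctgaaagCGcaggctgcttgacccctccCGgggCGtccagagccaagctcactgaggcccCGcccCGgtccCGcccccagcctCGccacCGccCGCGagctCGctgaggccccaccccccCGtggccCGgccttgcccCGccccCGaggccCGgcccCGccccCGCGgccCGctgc
This window held 23 CG dinucleotides (as many or more in 13.3% of promoters) and 75.6% G or C, with GGGCGG in 5 places, CCAAT in 1 and no TATAAA.

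Chpt1 (chromosome 10, 88288348 to 88340029, minus strand, GRCm39) encodes the choline phosphotransferase of the Golgi. Its DGC libraries had a lowest, median and highest value of 2.59, 19.9 and 28.2 CPM in 2N ChN, 10.8, 14.7 and 21.1 in 2N ChP, 7.90, 13.7 and 15.6 in Ts ChN and 9.49, 17.7 and 25.3 in Ts ChP mice. Its CA3 PN libraries were at 27.4, 33.5 and 38.0 CPM, 20.0, 29.8 and 38.3, 19.8, 28.5 and 43.8, and 21.4, 30.8 and 42.5 in the same order. In CA1 PNs the values were 27.5, 37.0 and 50.8 CPM in 2N ChN, 22.1, 30.4 and 44.7 in 2N ChP and 20.4, 35.5 and 47.3 in Ts ChP mice, and 27.5, 44.8, 36.9, 29.0 and 36.1 in the 5 Ts ChN libraries. DGCs lay wholly below CA1 PNs in 2N ChP and Ts ChN mice, where 12.8 and 20.6% of all genes were without overlap. They lay wholly below CA3 PNs in Ts ChN mice, where 26.7% of all genes were without overlap.

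CA1 PNs exceeded DGCs in Chpt1 2.10-fold in 2N ChN, 1.81-fold in 2N ChP, 2.58-fold in Ts ChN and 1.93-fold in Ts ChP mice, with LFC of 1.07, 0.86, 1.37 and 0.95 and adjusted p of 0.000451, 0.00134, 1.34e-06 and 9.84e-06. CA3 PNs exceeded DGCs 1.84-fold, 1.73-fold, 2.23-fold and 1.83-fold, with LFC of 0.88, 0.79, 1.16 and 0.87 and adjusted p of 0.00192, 0.00196, 9.09e-06 and 6.56e-05. The standard errors of these LFC were 0.17 to 0.24. The CA1 PN library was the higher in 27 of 27 mice and the CA3 PN library in 25 of 26. CA1 PNs and CA3 PNs were not separated, with LFC of 0.07 to 0.21 and intervals within -0.31 to 0.62. All 8 Chpt1 calls against DGCs held in each alternative and without each mouse.

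Cept1 (chromosome 3, 106409424 to 106455737, minus strand), which acts on both choline and ethanolamine in the endoplasmic reticulum and catalyses the same reaction as CHPT1, did not share that pattern. Its medians were 20.0 CPM in CA1 PNs (9.15 to 37.5), 19.3 in CA3 PNs (10.7 to 30.3) and 18.2 in DGCs (6.55 to 34.3). Its 12 LFC between populations lay from -0.19 to 0.19, with no call and intervals within -0.70 and 0.66, which leaves out the LFC of at least 0.79 that Chpt1 had against DGCs. The start of Cept1 overlaps Dram2 on the opposite strand (mean count 10.2 per library), the end of Pcyt1b overlaps Pdk3 (41) and that of Chdh overlaps Cacna1d (127). Chkb overlaps Gm44502 on its own strand (0.555) and C730034F03Rik on the other (2.11). The strand setting of the counting is not given in the sources used here, so reads in those overlaps could belong to either gene.

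Pemt (chromosome 11, 59861440 to 59950424, minus strand) and Chdh (chromosome 14, 29730856 to 29763372, plus strand) lie outside the Kennedy pathway. Pemt was at 0 in 15 of 27 CA1 PN, 10 of 26 CA3 PN and 18 of 28 DGC libraries, and its highest values were 3.41, 3.16 and 2.37 CPM. It passed the filter on low counts between populations in Ts ChP mice alone, with 3 LFC from -0.94 to 0.83 and intervals from -2.36 to 2.32. Chdh had medians of 1.76, 1.97 and 1.93 CPM in CA1 PNs, CA3 PNs and DGCs, and none of its LFC (-0.68 to 1.09, intervals from -1.75 to 2.19) passed a threshold. The SE of these Chdh LFC were 0.50 to 0.65. Its intervals left out the LFC of Chpt1 in CA1 PNs against DGCs of 2N ChN (interval -1.75 to 0.87) and Ts ChN mice (-1.12 to 1.36, narrowly, at 1.37). They also left out that of Chpt1 in CA3 PNs against DGCs of Ts ChN mice (-1.58 to 0.84). The LFC of Pcyt1b in CA1 PNs against CA3 PNs of Ts ChN mice was left out too (-0.77 to 1.75). In the other comparisons the Chdh intervals held the LFC of Chpt1 and Pcyt1b.

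Genotype went with no detectable change in these genes. None of the 10 lies on the segments triplicated in Ts mice. In 55 tests of a member between Ts and 2N mice, edgeR's quasi-likelihood test gave 0 with an unadjusted and 0 with an adjusted p under 0.05, while 3.77, 3.60, 9.20, 4.99, 8.50 and 7.60% of all genes passed without adjustment for CA1 PNs (ChN, ChP), CA3 PNs (ChN, ChP) and DGCs (ChN, ChP). After adjustment, 0.00814, 0.0490, 0.662, 0.249, 0.588 and 0.445% of all genes passed in the same order. DESeq2 also gave 0 members and limma-voom 2, neither past the adjusted threshold. Leaving aside Pemt and Chdh, the 48 LFC ran from -0.40 to 0.39, 26 above and 22 below 0, and no interval reached past -0.94 or 0.79. The intervals, with all libraries in, therefore allow changes of less than 2-fold in either direction for the 8 better measured genes. Without the CA1 PN libraries of mice 17-21 and 17-154, the LFC of these 8 genes in CA1 PNs of ChN mice ran from -0.35 to 0.39 in place of -0.28 to 0.21, with 0 calls. Slc44a2 moved most, from 0.17 to 0.39 (SE 0.30), and 3 of the 8 changed sign. Without the CA1 PN libraries over 200 CPM of CA2 markers, there were also 0 calls, and the LFC ran from -0.39 to 0.42 in ChN mice and from -0.34 to 0.34 in ChP mice (-0.20 to 0.17 with all libraries), with 2 of 8 changing sign in each. Slc44a2 again moved most, from 0.17 to 0.42 on ChN and from -0.20 to 0.18 on ChP, so its direction in CA1 PNs of ChP mice rests on which libraries are kept.

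By role, the transporters had genotype LFC of -0.03 to 0.21 (Slc44a1, above 0 in 5 of 6 comparisons) and -0.30 to 0.21 (Slc44a2). Of the kinases, Chka ran from -0.12 to 0.23, with intervals no wider than -0.34 to 0.49, and Chkb from -0.34 to 0.07, below 0 in 5 of 6. Pcyt1a ran from -0.12 to 0.33 and Pcyt1b from -0.16 to 0.19. Chpt1 ran from -0.40 to 0.14 and Cept1 from -0.33 to 0.39, and Chdh, with few counts, from -0.56 to 0.61. Pemt was tested in CA3 PNs of ChP mice alone, at 0.52 (interval -0.90 to 1.94).

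The member closest to the threshold was Chka in CA3 PNs of ChN mice. Its lowest, median and highest libraries were at 70.4, 78.1 and 93.1 CPM in 2N and 62.6, 87.0 and 115.4 in Ts mice, so that the Ts range contained the 2N range. The LFC was 0.23 (SE 0.12, interval 0.00 to 0.47, adjusted p = 0.553). It passed the unadjusted threshold with limma-voom (0.26), with library totals (0.24), without the filter on low counts (0.23) and without any 1 of 4 mice (0.25 to 0.30), with adjusted p of 0.37 to 0.543 in those fits. Next was Cept1 in the same comparison, at 12.8, 17.0 and 26.1 CPM in 2N and 19.4, 21.3 and 30.3 in Ts mice, with overlapping ranges. Its LFC was 0.39 (adjusted p = 0.558), and 0.45 (adjusted p = 0.367) with limma-voom. Between these groups the summed interneuron markers went from a median of 256.5 CPM in 2N (136.5 to 354.4) to 150.9 in Ts mice (123.3 to 166.4). Their part in the Chka and Cept1 values was not tested. With the CA3 PN library of mouse 15-145 counted as Ts, the genotype LFC of Chkb in CA3 PNs was -0.48 (adjusted p = 0.718). Chpt1 in DGCs of ChN mice had an LFC of -0.58 (adjusted p = 0.491) without 2N mouse 15-145.

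Maternal choline supply likewise went with no detectable change at 6 months. In 54 tests of a member between ChP and ChN mice the edgeR test gave 0 at an unadjusted and 0 at an adjusted p under 0.05. The unadjusted threshold was passed by 2.24, 3.26, 4.08, 4.90, 5.52 and 3.94% of all genes for CA1 PNs (2N, Ts), CA3 PNs (2N, Ts) and DGCs (2N, Ts), and the adjusted threshold by 0.00731% in CA3 PNs of 2N mice and 0% in the others. DESeq2 gave 0 and limma-voom 1, Chdh in CA3 PNs of Ts mice (LFC 0.94). Apart from Chdh, the 48 LFC ran from -0.42 to 0.39, 20 above and 28 below 0, with intervals within -0.89 to 0.95. Without the CA1 PN libraries of mice 17-21 and 17-154, the 8 LFC in CA1 PNs of 2N mice ran from -0.30 to 0.56 in place of -0.27 to 0.35, with 0 calls, and Slc44a2 moved most, from 0.35 to 0.56 (SE 0.33). Without those over 200 CPM of CA2 markers, the 8 LFC ran from -0.42 to 0.26 in 2N mice, where Pcyt1a went from 0.13 to -0.25 and 2 genes changed sign. In Ts mice they ran from -0.18 to 0.19 in place of -0.16 to 0.24, where 4 genes changed sign, again with 0 calls in either genotype.

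Slc44a1 had a diet LFC below 0 in 6 of 6 comparisons, but only from -0.17 to -0.01, with intervals within -0.43 to 0.24. Slc44a2 in DGCs of 2N mice was at 12.3 to 31.6 CPM on ChN and 7.35 to 21.5 on ChP, overlapping, with an LFC of -0.42 (SE 0.24, interval -0.89 to 0.06), and over all comparisons it ran from -0.42 to 0.35. The kinases ran from -0.19 to 0.16 (Chka) and from -0.36 to 0.07 (Chkb). The CCT genes ran from -0.35 to 0.19 (Pcyt1a) and from -0.04 to 0.24 (Pcyt1b, above 0 in 5 of 6). The 0.24 of Pcyt1b was its LFC in CA1 PNs of both genotypes, and without the libraries over 200 CPM of CA2 markers it was 0.05 in 2N and -0.01 in Ts mice. Without those of mice 17-21 and 17-154 it was 0.39 in 2N mice. Chpt1 had the smallest p of the 54, in DGCs of Ts mice, where libraries ran from 7.90 to 15.6 CPM on ChN and from 9.49 to 25.3 on ChP, with an LFC of 0.39 (SE 0.22, interval -0.04 to 0.82). Cept1 ran from -0.17 to 0.33. Chdh in CA3 PNs of Ts mice was at 0 to 3.13 CPM on ChN and 1.89 to 4.31 on ChP, with an LFC of 0.87 (SE 0.51). With mouse 16-206 left out the Chpt1 difference was 0.46 and past the unadjusted threshold, as was Chkb in CA3 PNs of 2N mice without mouse 15-145 (LFC -0.47), both with an adjusted p of 0.999. The smallest adjusted p of all 54 was 0.922.

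**Figure D5:**
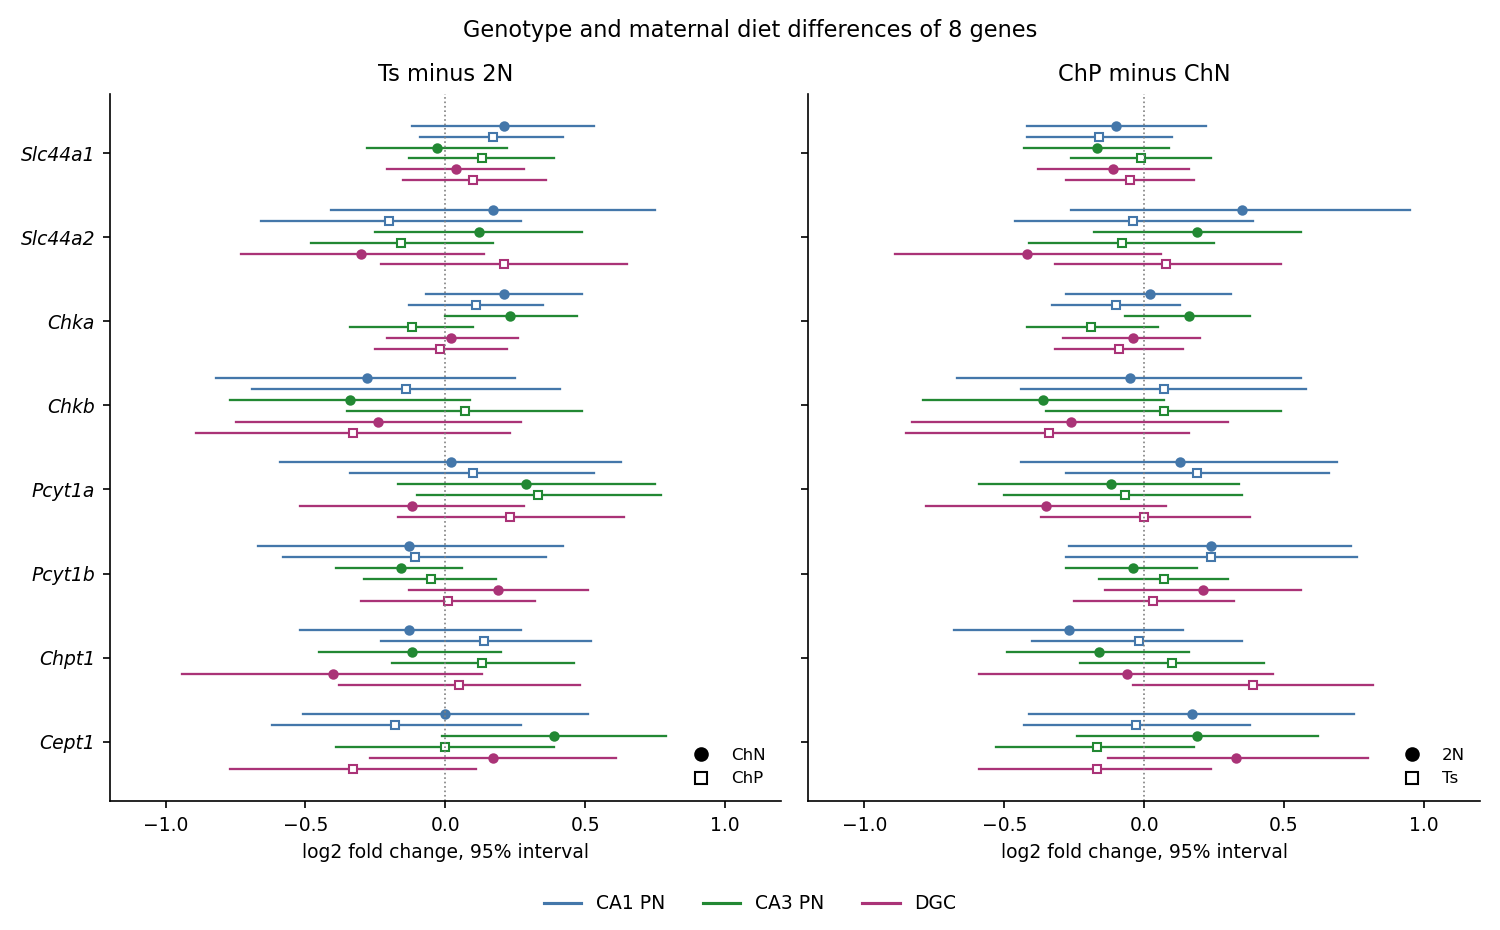
LFC with 95% interval for 8 genes, with Ts minus 2N in ChN (filled) and ChP (open) mice and ChP minus ChN in 2N (filled) and Ts (open) mice, for CA1 PNs, CA3 PNs and DGCs. Points lie between -0.42 and 0.39 and their intervals include 0, the closest being Chka in CA3 PNs of ChN mice (0.00 to 0.47).

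Whether diet acted alike in both genotypes was tested with an interaction term in each population. Of 30 tests, 1 had an unadjusted p under 0.05 and 0 an adjusted p under 0.05, where the unadjusted threshold was passed by 3.22% (CA1 PNs), 4.87% (CA3 PNs) and 3.97% (DGCs) of all genes. This was Chka in CA3 PNs. Its lowest, median and highest libraries were at 70.4, 78.1 and 93.1 CPM in 2N ChN and 71.7, 85.6 and 100.1 in 2N ChP mice, and at 62.6, 87.0 and 115.4 in Ts ChN and 63.0, 79.3 and 98.5 in Ts ChP mice. All 4 ranges overlapped. The diet LFC was 0.16 in 2N and -0.19 in Ts mice, neither past a threshold, and their difference was -0.34 (SE 0.16, interval -0.66 to -0.02, adjusted p = 0.983). It was -0.36 with DESeq2 and -0.37 with limma-voom, also past the unadjusted threshold, and -0.23, past neither, with the library of mouse 15-145 counted as Ts, while 7 of 26 fits that left out a library did not pass (LFC -0.41 to -0.26). In CA1 PNs the same term for Chka was -0.12 and in DGCs -0.04. The summed interneuron markers of CA3 PNs had medians of 256.5 CPM in 2N ChN, 210.1 in 2N ChP, 150.9 in Ts ChN and 172.5 in Ts ChP mice. Their part in the Chka term was not tested.

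Whether genotype or diet LFC differed between populations was tested in a model of all 81 libraries. Of 120 tests, 2 had an unadjusted p under 0.05 and 0 an adjusted p under 0.05. Both concerned Slc44a2 and diet in 2N mice. Its diet LFC, which was 0.35 for CA1 PNs, 0.19 for CA3 PNs and -0.42 for DGCs, gave a difference of 0.79 between CA1 PNs and DGCs (SE 0.32, interval 0.15 to 1.42, adjusted p = 0.943) and of 0.62 between CA3 PNs and DGCs (SE 0.30, interval 0.03 to 1.21, adjusted p = 1.0). Of all genes, 5.17 and 4.89% passed the unadjusted threshold in those contrasts. Without the CA1 PN libraries rich in CA2 markers the CA1 PN difference was 0.66, and with the library of mouse 15-145 as Ts the CA3 PN difference was 0.58, neither past the unadjusted threshold. Both contrasts share the DGC libraries. Without the CA1 PN libraries of mice 17-21 and 17-154 there were 6 unadjusted calls in place of 2. They were 3 of Slc44a2 (diet differences in 2N mice of 0.99 for CA1 PNs less DGCs and 0.59 for CA3 PNs less DGCs, and a genotype difference in ChN mice of 0.73 for CA1 PNs less DGCs) and 3 of Pemt, which has few counts, with adjusted p of at least 0.67.

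The neighbouring steps of the pathway gave a setting for the members. A list of 42 further genes covered other choline transporters, the phosphatidylethanolamine and phosphatidylserine branches, diacylglycerol supply, phosphatidylcholine remodelling and breakdown, sphingomyelin metabolism and betaine use, of which 26 to 31 could be tested in a comparison of genotype, diet or population. None had an adjusted p under 0.05 for genotype, diet or their interaction with edgeR, and at the unadjusted threshold there were 0 to 2 in each comparison. Between CA3 PNs and DGCs, 15 were higher and 5 lower of 30 tested in 2N ChN mice, 13 and 4 of 29 in 2N ChP, 13 and 5 of 29 in Ts ChN and 16 and 4 of 31 in Ts ChP mice at an adjusted p under 0.05, where 43.7, 40.4, 44.5 and 44.2% of all genes passed in either direction. Their median LFC was 0.51, 0.32, 0.37 and 0.46, against -0.04, -0.02, -0.06 and -0.04 over all genes. The oligodendrocyte and vascular markers were higher in CA3 PNs than in DGCs too (median sums of 210.6 against 57.7 and of 32.7 against 12.8 CPM), and their part in these counts was not tested. Between CA1 PNs and DGCs 7, 7, 8 and 9 were higher and 4, 3, 5 and 5 lower, beside 34.3, 31.8, 33.7 and 39.3% of all genes. Between CA1 PNs and CA3 PNs 1, 0, 2 and 3 were higher and 5, 6, 5 and 8 lower, beside 23.3, 22.9, 25.3 and 24.5%, a share near that of all genes in all groups but Ts ChP.

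Slc44a5, another choline transporter-like gene, was the clearest of these and ran against Slc44a2. It stood at 77.2 to 135.5 CPM in DGCs (median 108.5), 23.3 to 55.0 in CA1 PNs (39.3) and 14.7 to 44.9 in CA3 PNs (32.9), with no overlap between DGCs and pyramidal neurons over all mice. Within single groups of mice, 11.6 to 20.6% of all genes were without overlap between CA1 PNs and DGCs, and 19.3 to 26.9% between CA3 PNs and DGCs. The share of all genes over all mice was not computed. The LFC of Slc44a5 against DGCs was -1.55, -1.47, -1.30 and -1.47 in CA1 PNs and -1.80, -1.70, -1.83 and -1.68 in CA3 PNs of 2N ChN, 2N ChP, Ts ChN and Ts ChP mice (all adjusted p of at most 2.58e-08). The high-affinity choline transporter gene Slc5a7, which marks cholinergic neurons, had a count in 1 CA1 PN, 0 CA3 PN and 1 DGC library. Lpin2 and Agpat3, whose products make diacylglycerol and its precursor, had their highest medians in CA3 PNs, at 163.1 CPM (Lpin2) against 91.8 in CA1 PNs and 105.3 in DGCs, and 214.7 (Agpat3) against 135.7 and 136.6. Gpcpd1, which breaks down glycerophosphocholine, and Pcyt2, which activates phosphoethanolamine, were also highest there by their medians, with 125.6 CPM against 73.7 for CA1 PNs and 60.1 for DGCs (Gpcpd1) and 51.1, 37.7 and 27 (Pcyt2).

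Smpd3, a neutral sphingomyelinase that releases phosphocholine, had medians of 161.8 CPM for CA1 PNs, 170.1 for CA3 PNs and 77.1 for DGCs, low in DGCs as Chpt1 was. Its LFC of CA1 PNs over DGCs was 1.15, 1.15, 1.0 and 1.18. Gde1 (100.5, 94.6 and 57.4 CPM), Gdpd1 (41.2, 42.4 and 21.2) and Smpd1 (62.4, 64.8 and 39.5) had the same order of DGCs against pyramidal neurons, and Pisd was at 41.2, 29.4 and 24.2. Smpd2, another neutral sphingomyelinase, ran the opposite way at 2.35, 3.02 and 11.2 CPM, with an LFC of CA3 PNs against DGCs of -2.36 (SE 0.34, adjusted p = 2.86e-07) in Ts ChN mice.

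Among 9104 genes with a mean of at least 10 CPM, those whose log2 CPM over the 81 libraries was most like that of Pcyt1b were Ogfrl1 (Pearson r of 0.880), Atp6v1a (0.876) and Ephb1 (0.875). For Chpt1 they were Nell1 (0.794), Gnaq (0.793) and Exoc6b (0.791). Pcyt1b and Chpt1 were the members with the widest range of population means in 2N ChN libraries (1.26 on the log2 scale for both), ahead of Pcyt1a (0.89), and Chka had the narrowest (0.02). These correlations describe libraries that share mice, dissection and 3 populations.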

How the data were processed

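Expected counts and TPM per gene, with the effective lengths behind the TPM, were deposited for each of the 81 libraries. The authors prepared them with a stranded total RNA kit for low input, checked reads with FastQC 0.11.9, trimmed them with Trimmomatic 0.39 where needed, aligned them with STAR to GRCm39, computed alignment measures with Picard 2.26.2 and estimated counts with RSEM. The strand setting of RSEM is not given in the sources used here. The 3 count matrices equalled the counts of the single libraries in 81 of 81 libraries (tolerance 1e-09), and 0 matrix columns were without a sample.

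Here the deposited expected counts, some of which were not whole, were rounded and tested with edgeR 4.0.16 in R 4.3.3. The fits used TMM scaling and the quasi-likelihood test. Benjamini-Hochberg adjustment was over all genes over 0.1 CPM in 10 or more of the libraries fitted, as in the study's filter. Each test used the libraries of the groups compared, separately by population for genotype, diet and their interaction and by group of mice for the populations. The covariates of the study's own model (RNA concentration and read percentages) were not used here. Intervals are 95%, and calls are at p under 0.05, unadjusted as in the study or adjusted as stated. Levels are CPM normalized by TMM, and the depth of 358355 to 4744036 counts makes genes under about 10 CPM imprecise. DESeq2 1.42.0, limma 3.58.1 (limma-voom), library totals, other filters, a fit of all 4 groups and leaving out each mouse were alternatives. The code was tested on simulated data. Symbols came from GENCODE M39, promoter sequences from RefSeq (GRCm38.p6).

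The CA3 PN library of mouse 15-145 has a Ts title, but its library name is that of a mouse labelled 2N, and it was grouped as 2N. Libraries of different populations with the same mouse number come from the same animal. Their deviations from the group means correlated with a median r of 0.104 over 78 pairs (-0.0140 to 0.230), against -0.00312 over 2108 pairs of different mice. All 10 members are named with their levels. Another pathway gene is named where its adjusted p was under 0.05 for genotype or diet, or where it was 1 of the 3 with the smallest p between 2 populations, and Slc5a7 was added after its values were seen. Likeness used a prior count of 2. The members and gene lists were chosen with earlier results of these data known.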

Additional observations from a re-analysis of the deposited data

Results flagged for a closer look

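In 7 of 120 groups of 4 to 10 libraries a member had a library far from the others by Dixon's criterion, which chance gives in about 1 group in 20. Chpt1 stood at 7.9 CPM (7 counts) in the DGCs of Ts ChN mouse 17-192, where the next library had 13. Cept1 stood at 9.15 CPM (13 counts) in the CA1 PNs of 2N ChN mouse 17-154, whose triplicated genes lay in the Ts range, with the next library at 20. In CA3 PNs of Ts ChN mice, mouse 16-490 had the highest Cept1 (30.3 CPM, next 21.9) and the lowest Slc44a1 (35.5 CPM, next 53.4). Pemt had 1 count (1.64 CPM) in the DGCs of 2N ChP mouse 15-336 and none in the other libraries of that group. Chdh stood at 4.72 CPM (6 counts, next 1.84) in the CA1 PNs of Ts ChN mouse 16-357 and at 4.74 CPM (4 counts, next 1.95) in the DGCs of Ts ChP mouse 16-206.

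A test of the difference between effects itself gave an unadjusted p under 0.05 in 3 cases. The diet LFC of Chka in CA3 PNs differed by -0.34 between Ts and 2N mice. The diet LFC of Slc44a2 in 2N mice differed by 0.79 between CA1 PNs and DGCs and by 0.62 between CA3 PNs and DGCs. None passed adjustment over all genes (adjusted p = 0.983, 0.943 and 1.0 with edgeR).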

How the results depend on the processing

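No call changed direction under any alternative. Between populations the 32 calls of members became 29 to 36 and the 25 adjusted calls 24 to 30 over the alternatives, and 29 to 34 and 23 to 26 when each mouse was left out. The mice pair the populations, and with mouse as a replicate block there were 30 calls and 27 adjusted calls, the 25 adjusted calls without the block among them. For Ts against 2N, where there was no call, limma-voom gave 2, library totals 1, no filter 1 and the library of mouse 15-145 as Ts 1. For ChP against ChN, limma-voom gave 1 and the library of mouse 15-145 as Ts 1. For genotype by diet, the single call was lost (0) with that library as Ts. For effects between populations, limma-voom gave 4 calls in place of 2, leaving out the CA1 PN libraries of mice 17-21 and 17-154 gave 6, and the library of mouse 15-145 as Ts gave 1. The causes were not tested. Leaving out each library gave 0 to 2 calls for genotype, 0 to 2 for diet and 0 to 2 for genotype by diet. Adjusted calls for these comparisons and for effects between populations stayed at 0 throughout. Effects between populations were not refitted without each library. The alternative without the libraries rich in CA2 markers was chosen after the data were seen. Depth limits Pemt and Chdh, with a median of 0 and 2 counts per library, and p-values carry the spread between libraries of different mice.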
